A study of Homo sapiens with 6 samples.

Results

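The BH3-only genes encode the proteins that start the mitochondrial route to cell death. The 8 genes described here are BBC3, BCL2L11, BID, PMAIP1, BAD, BIK, BMF and HRK, taken by gene name from the 58735 genes of the deposited tables. All 8 were found once each. They were measured by RNA sequencing in 6 libraries of A549, an established human lung adenocarcinoma line. The Vector group holds 3 libraries whose genotype and treatment are both given as WT, and the OE_GPX3 group holds 3 libraries for which both are given as OE. GPX3 encodes a secreted glutathione peroxidase, an enzyme that reduces peroxides. The labels name no time point, no promoter for the overexpressed gene and no clone, and they do not say whether replicates came from separate cultures, so error here is the spread between these libraries, which may be technical.

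A healthy cell keeps its outer mitochondrial membrane closed because anti-apoptotic proteins such as BCL2L1 (BCL-XL) and MCL1 hold the pore-forming effectors BAX and BAK1 in check. BH3-only proteins carry a short helix, the BH3 segment, that fits into a groove of the anti-apoptotic proteins and frees the effectors, and some of them also activate the effectors directly. Many BH3-only proteins are controlled by transcription, and PMAIP1 (NOXA) is known to be induced by the stress factor ATF4.

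What the 8 genes share is the core of that BH3 segment, a leucine, 3 residues of any kind, a small residue and an aspartate. The coding bases of the core are shown because the family is named for this segment. They were located by a search of the translated coding sequences of the GENCODE 29 transcripts. For each gene 1 transcript is shown, chosen among those that hold the pattern behind an ATG start. A match in it was therefore certain, and the pattern matched once there. The search also required the next residue to be aspartate, glutamate, glutamine, serine, lysine or methionine. Each line gives coding bases 5′ to 3′ with the 18 bases of the core in capitals, and the coordinates are those of the capitals on hg38.
BBC3, codons 141 to 146, chr19:47226591-47226608, minus strand: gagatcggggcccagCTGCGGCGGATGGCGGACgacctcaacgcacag
BCL2L11, codons 92 to 97, chr2:111150103-111150120, plus strand: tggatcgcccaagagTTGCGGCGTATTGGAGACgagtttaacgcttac
BID, codons 136 to 141, chr22:17739427-17739444, minus strand: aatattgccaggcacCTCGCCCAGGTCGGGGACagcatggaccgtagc
PMAIP1, codons 29 to 34, chr18:59902673-59902690, plus strand: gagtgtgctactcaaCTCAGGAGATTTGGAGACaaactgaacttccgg
BAD, codons 114 to 119, chr11:64271634-64271651, minus strand: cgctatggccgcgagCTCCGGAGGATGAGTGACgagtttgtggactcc
BIK, codons 61 to 66, chr22:43127716-43127733, plus strand: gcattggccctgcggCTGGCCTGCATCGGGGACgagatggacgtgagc
BMF, codons 137 to 142, chr15:40104207-40104224, minus strand: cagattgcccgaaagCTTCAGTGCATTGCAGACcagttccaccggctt
HRK, codons 37 to 42, chr12:116881182-116881199, minus strand: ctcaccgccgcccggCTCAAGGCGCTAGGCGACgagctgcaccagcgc

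All 8 cores end in the same aspartate codon, GAC, while the flanking bases differ from gene to gene. The PMAIP1 coding sequence is the shortest of these transcripts at 162 bases, and that of BID the longest at 723, while that of BCL2L11 has 414. These lengths and the codon numbers hold for the chosen transcripts and can differ in other transcripts of the same gene. The deposited values are summed over the transcripts of a gene, and not every annotated transcript holds the core. It was found, behind an ATG start, in 1 of 2 coding transcripts of PMAIP1, 2 of 4 of BBC3, 7 of 17 of BCL2L11, 4 of 11 of BID, 4 of 6 of BAD, 4 of 9 of BMF, 1 of 2 of HRK and in the single transcript of BIK. A level or a fold change given for a gene is therefore that of all its transcripts together.

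The overexpressed gene was high in every library labelled for it. GPX3 had 638, 658 and 648 counts in Vector, against 23372, 17470 and 20984 in OE_GPX3, and its level rose 33.8-fold (log2 fold change 5.08, SE 0.13). Libraries held 15831693 to 18751815 counts. Genes of the mitochondrial chromosome took 6.81% to 7.52% of counts in Vector and 6.19% to 6.55% in OE_GPX3, so these shares did not overlap. The epithelial identity of A549 was visible: 5 of 5 epithelial markers (KRT8, KRT18, KRT19, EPCAM, CDH1) were well detected. Their summed level was 4272 to 4754 FPKM in Vector and 4894 to 6680 FPKM in OE_GPX3. Of the 5, 0 were called by edgeR, beside 0.263% of all genes tested, and 3 had an unadjusted p under 0.05, beside 14.6%. All 5 log2 fold changes were above 0, with a median of 0.32, and KRT19 was at 0.46 (edgeR adjusted p = 0.0541). FPKM, as deposited by the authors, is a count per gene length and library size, the scale on which different genes can be compared. Markers of other cells were near 0, apart from the leukocyte marker CD14. It stood at 7.41 ± 1.21 FPKM in Vector and 8.70 ± 0.298 FPKM in OE_GPX3 (SD, n = 3 each). None of 4 endothelial and none of 5 fibroblast markers had enough counts to be tested, with no single count above 13, and of 5 leukocyte markers only CD14 did. Fewer cells of a kind and less RNA per cell cannot be told apart in such bulk libraries. The part of the mitochondrial and epithelial differences in any result here was not tested.

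In the Vector libraries the BH3-only transcripts spanned a wide range of FPKM levels, with a group of 4 higher and a group of 4 lower ones. BBC3 stood highest at 17.2 ± 2.55 FPKM (SD, n = 3), followed by BAD at 16.5 ± 2.24, BID at 14.2 ± 0.855 and PMAIP1 at 13.4 ± 3.80. BIK followed at 3.76 ± 0.137 FPKM, BCL2L11 at 2.75 ± 0.385, BMF at 0.879 ± 0.252 and HRK at 0.204 ± 0.0309 (SD, n = 3 each). Neighbours among the upper 4 had overlapping ranges over libraries, though BAD was above BID within each of the 3 libraries. From PMAIP1 downwards no neighbours overlapped. In counts, with no division by gene length, BCL2L11 had 372, 368 and 256 in Vector and BIK 67, 68 and 59.

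In the OE_GPX3 libraries the order of the upper 4 was different. BAD stood highest at 20.6 ± 3.21 FPKM, above BID at 15.1 ± 1.76 in every library, and BID overlapped BBC3 at 15.0 ± 2.23 (SD, n = 3 each). PMAIP1, at 7.65 ± 0.863 FPKM, now lay below the range of BBC3. The lower 4 kept their order, with BIK at 3.29 ± 0.558 and BCL2L11 at 3.06 ± 0.615 FPKM overlapping, BMF at 0.911 ± 0.131 and HRK at 0.159 ± 0.0523 (SD, n = 3 each). Orders of this kind are descriptions, since the genes were chosen with the levels in both groups known.

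**Figure D1:**
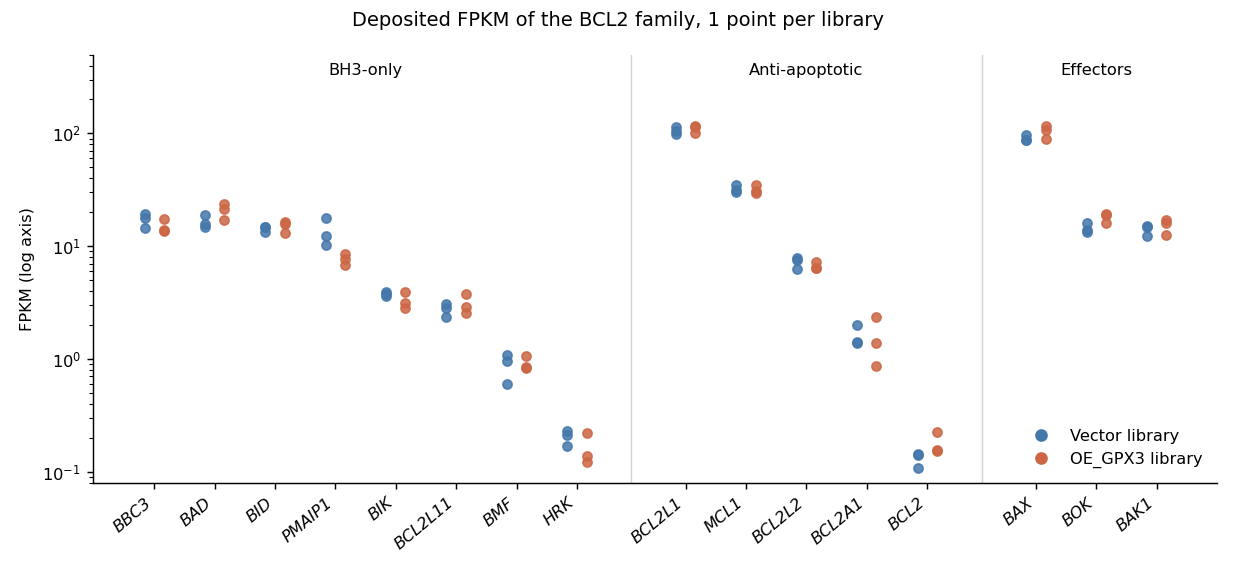
Deposited FPKM (log axis) of the BH3-only, anti-apoptotic and effector transcripts, 1 point per library, Vector in blue and OE_GPX3 in orange. BBC3, BAD, BID and PMAIP1 lie between 6.75 and 23.5 FPKM, HRK and BCL2 below 0.3, and BCL2L1 and BAX near 100.

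Summed over the 8 genes, BH3-only transcripts came to 60.7, 73.0 and 72.9 FPKM in Vector, against 58.3, 67.1 and 71.9 FPKM in OE_GPX3, so the groups overlapped in the total. The makeup of the total differed, and as shares of 1 total these values move against each other. PMAIP1 made up 16.9%, 24.2% and 17.0% of it in Vector, against 11.6%, 12.6% and 10.7% in OE_GPX3. BAD made up 24.2%, 21.5% and 26.1% in Vector, against 29.4%, 31.6% and 32.6% in OE_GPX3. In neither case did the groups overlap.

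Whether any of the 8 differed with GPX3 overexpression was read from a fit of OE_GPX3 against Vector over all 14458 genes with enough counts, which all 8 had. The family was chosen by name with its levels in both groups and this comparison known, the lower PMAIP1 included, so what follows describes the 8 genes and no p-value is given for them. A gene counts as called where its adjusted p in edgeR's quasi-likelihood test was under 0.05 over all genes tested. Of the 8, 1 was called lower (PMAIP1), 0 were called higher and 7 were not called, beside 0.263% of all genes called in either direction, 0.166% lower and 0.0968% higher (38 genes, 24 lower and 14 higher). Over all genes, total-count scaling called 13 higher and 55 lower, DESeq2 68 higher and 48 lower, a fit with the replicate number as a block 141 higher and 90 lower, and the GC correction described below 2 and 2. Fold changes were below 0 in 4 of the 8 and above 0 in 4, with a median log2 fold change of -0.08 beside -0.02 over all genes (from -0.18 to -0.03 over the alternatives). PMAIP1 was also the only one of the 8 whose CPM values (counts relative to a TMM-scaled library size) did not overlap between groups, OE_GPX3 being lower. Over all genes tested 18.5% did not overlap, 9.9% with OE_GPX3 lower and 8.62% with OE_GPX3 higher. Nothing is read from either count, since the choice of genes used this contrast.

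**Figure D2:**
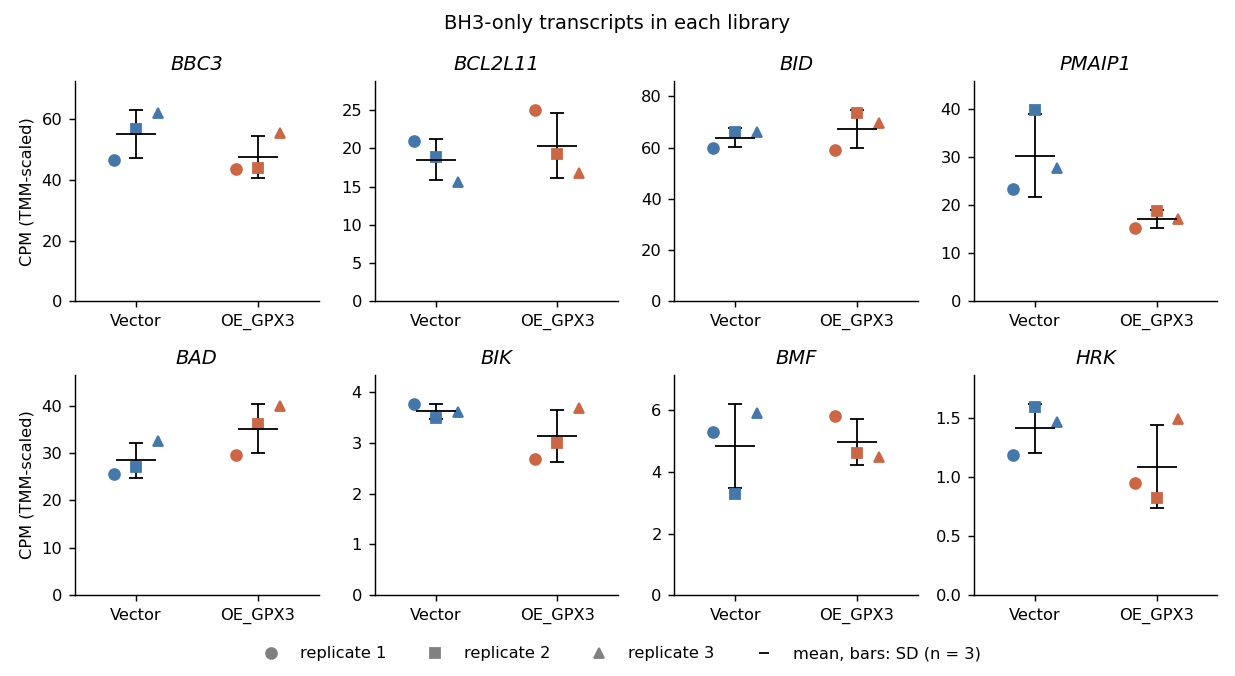
CPM of the 8 BH3-only genes in each library, with symbols for the replicate number, a line for the group mean and bars for the SD (n = 3). The 3 OE_GPX3 values of PMAIP1, 15.2 to 18.9, all lie below its 3 Vector values, 23.3 to 39.9, while the groups of the other 7 genes overlap.

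PMAIP1 (ENSG00000141682, chr18:59899948-59904306, plus strand) encodes NOXA, which binds MCL1 and BCL2A1 in preference to the other anti-apoptotic proteins. It had 413, 775 and 455 counts in Vector, against 271, 320 and 265 in OE_GPX3. In CPM these are 23.3, 39.9 and 27.8 against 15.2, 18.9 and 17.2. Vector replicate 2 stood far above the others, and the lowest Vector library was still above the highest OE_GPX3 library. The means were 30.3 ± 8.56 and 17.1 ± 1.85 CPM (SD, n = 3 each), so the level fell 1.78-fold, a log2 fold change of -0.83 with an SE of 0.16 and a 95% interval of -1.15 to -0.51. Without Vector replicate 2 the log2 fold change was -0.58 and the gene was not called. It was also not called without OE_GPX3 replicate 2 (-0.90) or replicate 3 (-0.82), on the deposited FPKM (-0.71 on the log2(FPKM + 1) scale) and after a correction for GC content (-0.65). Its sign was the same under all 16 alternatives.

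**Figure D3:**
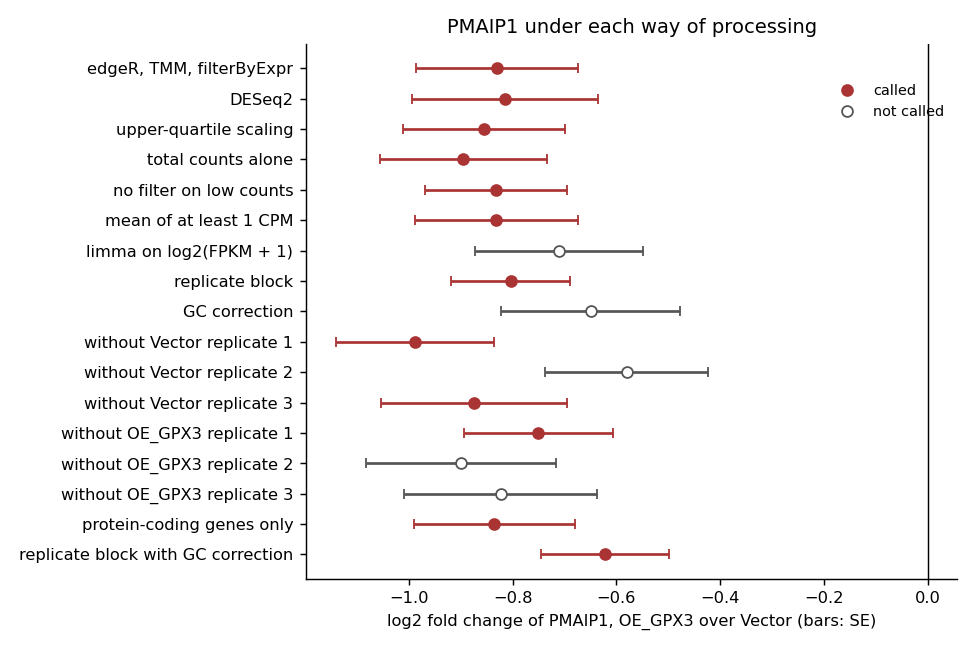
Log2 fold change of PMAIP1, OE_GPX3 over Vector, under the main analysis (top) and each of the 16 alternatives, with bars for the SE, filled where the gene was called and open where it was not. All points lie between -0.99 and -0.58, and 11 of the 16 alternatives call the gene.

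GC content is named because it differs widely in the family. In the longest GENCODE 29 transcript it was 37.2% for PMAIP1, the lowest of the 8, and 69.7% for BBC3 and 66.3% for BAD, the highest. The correction removes a smooth trend of each library's levels with GC content. It moved PMAIP1 from -0.83 to -0.65, BAD from 0.31 to 0.12 and BBC3 from -0.21 to -0.44 on the log2 fold change scale, and it gave BID 0.09 and BCL2L11 0.22. With the replicate block added to that correction, PMAIP1 (-0.62) and BBC3 (-0.43) were both called lower and BAD was at 0.12. That alternative was chosen after seeing the data, and over all 14458 genes it called 18 higher and 31 lower.

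MCL1, the main partner of NOXA, was at 31.8, 34.6 and 30.0 FPKM in Vector, against 34.8, 30.8 and 29.9 in OE_GPX3. The groups overlapped, with a log2 fold change of -0.03 and a 95% interval of -0.24 to 0.18. The level of PMAIP1 divided by that of MCL1 was 0.323, 0.510 and 0.412 in Vector, against 0.194, 0.275 and 0.258 in OE_GPX3. These ratios did not overlap between groups, as the PMAIP1 levels themselves did not.

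BBC3 (ENSG00000105327, chr19:47220822-47232766, minus strand) encodes PUMA, which binds all the main anti-apoptotic proteins. It stood at 46.6, 56.9 and 62.1 CPM in Vector, against 43.5, 43.8 and 55.5 CPM in OE_GPX3. OE_GPX3 replicates 1 and 2 were the lowest of the 6 libraries, whereas replicate 3 lay among the Vector values. The log2 fold change was -0.21 (SE 0.12, 95% interval -0.46 to 0.03). Over the alternatives it ranged from -0.44 to -0.11, always below 0.

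BCL2L11 (ENSG00000153094, chr2:111119378-111168447, plus strand) encodes BIM, a direct activator of the effectors whose protein is marked for destruction by ERK signalling. Its CPM values were 21.0, 18.9 and 15.6 in Vector, against 25.1, 19.3 and 16.8 in OE_GPX3. Both groups covered much the same range. For BCL2L11 the log2 fold change was 0.14 (SE 0.15, 95% interval -0.16 to 0.44), and without OE_GPX3 replicate 1, the highest library, it was -0.037.

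BID (ENSG00000015475, chr22:17734138-17774770, minus strand) encodes the protein that caspase-8 cuts to link death receptors to mitochondria. It was the most abundant of the 8 by CPM, at 59.8, 66.0 and 66.0 in Vector, against 59.0, 73.4 and 69.5 in OE_GPX3. Replicate 1 was the lowest library of each group. BID had a log2 fold change of 0.07 (SE 0.11), and its 95% interval of -0.15 to 0.30 holds changes of up to 1.23-fold.

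BAD (ENSG00000002330, chr11:64269830-64284704, minus strand) encodes a binder of BCL2, BCL-XL and BCL-W that survival kinases inactivate by phosphorylation, after which 14-3-3 proteins hold it in the cytosol. Its CPM values were 25.6, 27.2 and 32.6 in Vector, against 29.5, 36.2 and 39.9 in OE_GPX3. The groups overlapped through Vector replicate 3 and OE_GPX3 replicate 1. The log2 fold change was 0.31 (SE 0.13, 95% interval 0.04 to 0.57), the highest of the 8. BAD was not called with all 6 libraries. It was called higher without OE_GPX3 replicate 1 (0.42), a fit that called 2.71% of all genes higher. The direction of PMAIP1 and BAD was opposite under each of the 16 alternatives.

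The remaining 3 genes had few counts. BIK (ENSG00000100290, chr22:43110748-43129712, plus strand) encodes a BH3-only protein of the endoplasmic reticulum membrane. It had 67, 68 and 59 counts in Vector, against 48, 51 and 57 in OE_GPX3. Its CPM values, 3.50 to 3.78 in Vector and 2.69 to 3.70 in OE_GPX3, overlapped only through OE_GPX3 replicate 3, and the log2 fold change was -0.22 (SE 0.23, 95% interval -0.68 to 0.25).

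BMF (ENSG00000104081, chr15:40087890-40108892, minus strand) encodes a protein that is held on the actin cytoskeleton until the cell detaches. It had 94, 64 and 97 counts in Vector, against 104, 78 and 69 in OE_GPX3. The lowest library was Vector replicate 2 and the highest by CPM Vector replicate 3, so the Vector values enclosed those of OE_GPX3. The log2 fold change was 0.05 (SE 0.22, 95% interval -0.39 to 0.49), with a sign that changed between alternatives.

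HRK (ENSG00000135116, chr12:116856144-116881441, minus strand) encodes Harakiri, known mostly from neurons. It had 21, 31 and 24 counts in Vector, against 17, 14 and 23 in OE_GPX3. At such counts the counting error alone is wide: the exact 95% Poisson interval of the lowest library, 14 counts, runs from 7.65 to 23.5. The log2 fold change was -0.39, with an SE of 0.36 and a 95% interval of -1.12 to 0.34, the widest of the 8. A change of the size seen in PMAIP1 lies within that interval.

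Some of these genes share exons with a neighbour on the opposite strand, and the sources used here do not say whether reads were assigned by strand. BAD shares 404 exonic bases, 23.7% of its exons, with GPR137, which had 930 to 1082 counts per library and a log2 fold change of 0.15. BCL2L11 shares 727 bases with MIR4435-2HG, which had 144 to 185 counts and a log2 fold change of 0.03. BMF shares 461 bases with BMF-AS1, listed at 0 counts in all libraries. BAD and BCL2L11 values are uncertain to that extent. PMAIP1, BIK and HRK share no exonic base with another annotated gene.

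The proteins that BH3-only proteins act on were compared next, from lists chosen with earlier results of these data known. Over all genes tested, edgeR called 0.263%, DESeq2 0.802%, and 14.6% had an unadjusted p under 0.05 in edgeR, so lists this short would hold few or no calls at the shares of the whole table. Of 5 tested anti-apoptotic genes 0 were called by edgeR and 0 by DESeq2, and 0 had an unadjusted p under 0.05 in edgeR. Their median log2 fold change was -0.03, and from -0.09 to 0.07 over the alternatives. BCL2L1 was by far the highest at 106 ± 7.63 FPKM with Vector and 110 ± 8.50 with OE_GPX3 (SD, n = 3 each), with a log2 fold change of 0.04 and a 95% interval of -0.17 to 0.24. BCL2L2 stood at 7.24 and 6.72 FPKM, BCL2A1 at 1.61 and 1.53, and BCL2 itself at only 0.130 and 0.178 FPKM. BCL2L10 had too few counts to be tested.

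The 3 effector genes had log2 fold changes above 0, with a median of 0.17 beside -0.02 over all genes, and 0 were called by edgeR or DESeq2. With the GC correction 1 of the 3 was below 0 and the median was 0.05. BAX was at 90.8 ± 5.40 and 104 ± 13.7 FPKM and BAK1 at 14.1 ± 1.48 and 15.1 ± 2.27 (SD, n = 3 each), with overlapping groups. BOK, an effector that needs no BH3-only activator, was at 13.2, 14.0 and 15.9 FPKM in Vector, against 15.9, 19.0 and 19.2 in OE_GPX3. Its groups met at 15.9 on this scale but did not overlap in CPM, with a log2 fold change of 0.31 (95% interval 0.07 to 0.55, adjusted p = 0.226 in edgeR). It was the 1 gene of the 3 with an unadjusted p under 0.05, beside 14.6% of all genes. It was called higher without OE_GPX3 replicate 1, a fit that called 2.71% of all genes higher.

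**Figure D4:**
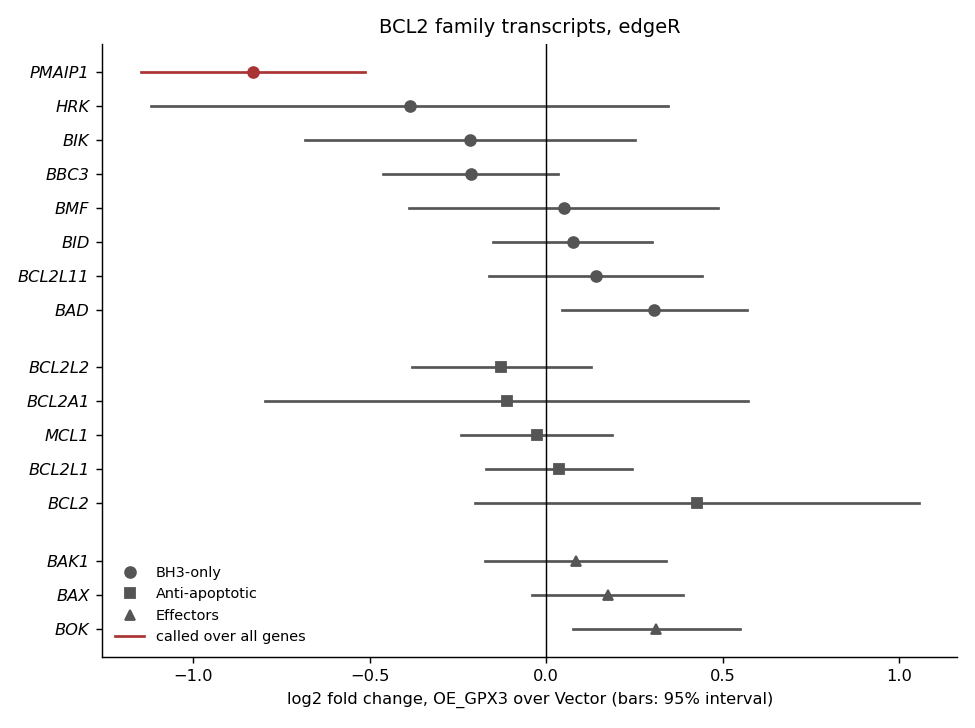
Log2 fold change of BCL2 family transcripts, OE_GPX3 over Vector, with 95% intervals from edgeR, for BH3-only (circles), anti-apoptotic (squares) and effector genes (triangles). PMAIP1 at -0.83 is the one gene called. The intervals of BAD and BOK lie wholly above 0, but no interval is adjusted for the number of genes tested. Before adjustment, 14.6% of all genes tested pass the 0.05 limit.

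Of 8 tested genes that act after the pore opens, 0 were called by edgeR or DESeq2 (0.263% and 0.802% of all genes) and 2 had an unadjusted p under 0.05 in edgeR, beside 14.6% of all genes. Their median log2 fold change was -0.08, and 0.02 with the GC correction. The 2 genes were XIAP, the caspase inhibitor, at -0.33 (95% interval -0.59 to -0.08, edgeR adjusted p = 0.234) and HTRA2, a mitochondrial protease that antagonises it, at 0.27 (0.02 to 0.51, edgeR adjusted p = 0.312). Of 4 tested genes for other BH3-like proteins 0 were called by edgeR or DESeq2, and 1 had an unadjusted p under 0.05, beside the same shares of all genes. BCL2L12, at 0.32 (edgeR adjusted p = 0.234), was that gene and was called higher without OE_GPX3 replicate 1, where 2.71% of all genes were, while the mitophagy receptors BNIP3 and BNIP3L were at -0.08 and -0.20.

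Of 22 genes for proteins that hold, cut, modify or degrade BH3-only proteins or their partners, 0 were called by edgeR or DESeq2 (0.263% and 0.802% of all genes) and 1 had an unadjusted p under 0.05 in edgeR, beside 14.6% of all genes. That was AKT1, a kinase that phosphorylates BAD, at a log2 fold change of 0.23 (edgeR adjusted p = 0.312). The 14-3-3 gene YWHAZ followed at -0.18 (edgeR adjusted p = 0.416). Named for their roles after their values were seen, DYNLL1, the light chain that binds BIM, was at 0.12, DYNLL2, which binds BMF, at 0.17, and CASP8, which cuts BID, at -0.11. CPM values did not overlap between groups for 6 of the 22, beside 18.5% of all genes. Of those 6, 2 had OE_GPX3 lower. The list's median was -0.08, and 0.02 with the GC correction.

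Transcription factors known to induce BH3-only genes were compared by the same fit. Of 11 tested, 0 were called by edgeR, 1 by DESeq2 (ATF3, lower; 0.332% of all genes were called lower by DESeq2) and 5 had an unadjusted p under 0.05 in edgeR, beside 14.6% of all genes. Their median log2 fold change was -0.25, with 9 of 11 below 0 beside 52.6% of all genes. E2F1, named after its values were seen, was among the 5 but higher in OE_GPX3 (0.35, edgeR adjusted p = 0.209). It was called higher without OE_GPX3 replicate 1, where 2.71% of all genes were. ATF3 went from 22.6 ± 5.94 to 9.25 ± 3.04 CPM (SD, n = 3 each; log2 fold change -1.30, edgeR adjusted p = 0.0517), was called lower in 9 of the 16 alternatives, and HIF1A was at -0.31 (edgeR adjusted p = 0.182). ATF4, named for its role after its values were seen, was at -0.34 (95% interval -0.76 to 0.08). It was called lower without Vector replicate 1, where 0.598% of all genes were.

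Genes regulated by the stress factor ATF4 were set beside PMAIP1, which it is known to induce. Of 25 ATF4 targets 2 fell and 23 were not called, beside 0.166% of all genes called lower. The median log2 fold change was -0.55, with 23 of 25 below 0. ATF3 and DDIT3 are in this list and also among the 11 transcription factors, so the lists are not separate. PPP1R15A, a phosphatase subunit that ends the stress response, was at -0.62 (edgeR adjusted p = 0.0253), and CEBPG, a partner of ATF4, at -0.59 (edgeR adjusted p = 0.0255). The calls in the ATF4 list depended on the libraries and the fit. Without Vector replicate 2, without OE_GPX3 replicate 2 or by limma on the FPKM, 0 of its genes were called. The GC correction, leaving out Vector replicate 3 and leaving out OE_GPX3 replicate 3 each gave 1, where 2, 13 and 9 of all genes were called lower. DESeq2 and total counts alone each gave 5, upper-quartile scaling 4 and no filter on low counts 10. The replicate block gave 12, and the block and GC correction together 8. Over all genes the same fits, in that order, called 48, 55, 38, 78, 90 and 31 lower. The fit with no filter tested 26840 genes and the others 14458. Without Vector replicate 1 there were 11 falls, with 0.598% of all genes called lower, and without OE_GPX3 replicate 1 there were 9, with 1.75% called lower. Without OE_GPX3 replicate 2 only 1 gene of the whole table was called. The median of the ATF4 list stayed between -0.68 and -0.37 over the 16 alternatives, with 22 or 23 of its tested genes below 0 in each. Whether this list moved more closely with PMAIP1 than other regulated sets was not tested.

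By library, PMAIP1 was at 0.05, 0.83 and 0.31 in Vector, against -0.56, -0.25 and -0.38 in OE_GPX3, as log2 CPM relative to the mean of all 6. The mean of the 25 ATF4 targets on that scale was -0.10, 0.58 and 0.29 in Vector, against -0.52, -0.24 and -0.02 in OE_GPX3. Vector replicate 2 was the highest and OE_GPX3 replicate 1 the lowest library for both. OE_GPX3 replicate 3 differed: it was low for PMAIP1 but the highest of its group for the ATF4 targets, where it stood above Vector replicate 1. BBC3 had its highest library in Vector replicate 3, at 0.29. The part of these stress genes, or of Vector replicate 2, in the fall of PMAIP1 was not tested.

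**Figure D5:**
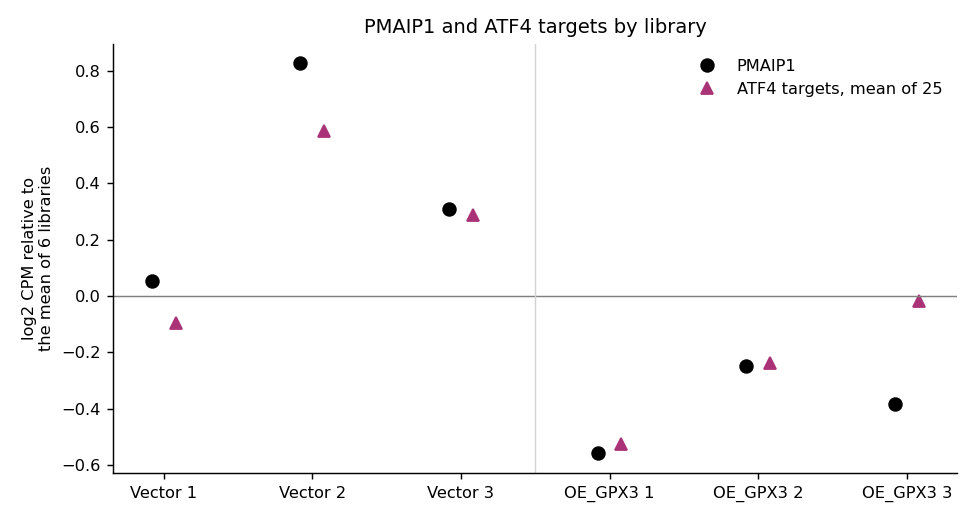
Log2 CPM relative to the mean of the 6 libraries for PMAIP1 (circles) and the mean of 25 ATF4 targets (triangles), by library. Both are highest in Vector replicate 2 and lowest in OE_GPX3 replicate 1, and in OE_GPX3 replicate 3 PMAIP1 is at -0.38 while the ATF4 targets are at -0.02.

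The promoter of PMAIP1 is shown because its transcript is the one that fell. RefSeq promoter windows (GRCh38.p14, 250 bases before to 50 after the start site) were given for 7 of the 8 genes, in 13 windows, and not for BIK. The 202 bases of the PMAIP1 window that precede its GENCODE gene model, chr18:59899746-59899947 on the plus strand, are printed with the CRE core in capitals, the half-site of factors of the ATF and CREB families.
PMAIP1: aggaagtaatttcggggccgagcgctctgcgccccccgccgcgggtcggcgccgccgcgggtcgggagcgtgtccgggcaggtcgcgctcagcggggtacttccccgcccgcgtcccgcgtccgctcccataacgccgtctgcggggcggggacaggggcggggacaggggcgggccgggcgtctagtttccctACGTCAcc

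That match lies at chr18:59899940-59899945, starting 56 bases before the RefSeq start site. The printed stretch has a GC content of 76.2%, in contrast to the 37.2% of the transcript. Motifs were searched on both strands of whole windows. The CRE core (TGACGT) was in the windows of PMAIP1 and BAD and in 7.98% of all 35116 windows. The full palindrome that contains it (TGACGTCA) was in none of the 13 and in 1.85% of all. The C/EBP-ATF element (TGATGNAA) was in the HRK window and in 3.62% of all, the AP-1 site (TGANTCA) in the BBC3 window and in 7.71%, and the FOXO site (GTAAACA) in the BCL2L11 window and in 3.42%. The GC box (GGGCGG) was in 10 of the 13 windows and in 45.0% of all, 4 times in that of PMAIP1. Those 10 windows belong to BAD, BCL2L11, BID, BMF, HRK and PMAIP1. Windows of BAD and of BID overlap and hold some of the same matches, so the 10 are not separate sites. The E2F site (TTTCGCGC) was in none of the 13 and in 0.515% of all. PMAIP1 and BAD, which share the CRE core, had log2 fold changes of -0.83 and 0.31, and BAD was not called. The part of the CRE core in either value was not tested. A match describes letters in a window and no match says nothing of a factor's binding elsewhere.

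The transcripts whose levels followed each member most closely were taken from 9976 other protein-coding genes of at least 5 CPM, by Pearson's r of log2 CPM over the 6 libraries. An r over 0.95 was reached by 57 genes with PMAIP1, 252 with BAD, 127 with BID, 25 with BCL2L11 and 21 with BBC3. For PMAIP1 the closest were LURAP1L (r = 0.999, log2 fold change -0.68), the tRNA synthetase EPRS (r = 0.985, -0.50), UBAP1 (r = 0.981, -0.20), SPX (r = 0.981, -0.45) and the ATF4-induced factor DDIT3 (r = 0.980, -1.54). DDIT3 itself was not called (edgeR adjusted p = 0.273), but it was called lower in 5 of the 16 alternatives. For BBC3 they were SGSM1, EYA2 and IER3 (r from 0.980 to 0.981), for BCL2L11 SLC22A3, GDE1 and TSPAN3 (0.979 to 0.988), for BID RANBP1, BTBD6 and EIF2B5 (0.996 to 0.998) and for BAD SAC3D1, RNF167 and MISP (0.995 to 1.00). These values describe 6 libraries that share a group structure, and no p is given.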

How the data were processed

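The authors deposited whole-number counts per gene and FPKM for 6 libraries. The build is hg38 per the submitters' processing notes. For the aligner, the counter and strand use, the method is not given in the sources here. Gene positions match GENCODE 29 for 58735 of 58735 genes. The deposited FPKM equal count per gene length and a library constant, which differs from the total count by -4.52% to 4.90%. The labels' protocols describe TRIzol extraction and a small RNA library, though messenger RNA was counted.

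Counts were filtered with filterByExpr (minimum count 10, minimum total 15), scaled by TMM and fitted with edgeR 4.0.16 (quasi-likelihood, robust, two-sided, Benjamini-Hochberg adjustment over 14458 genes). Alternatives used DESeq2 1.42.0, limma 3.58.1 on log2(FPKM + 1) for genes of a mean FPKM of at least 1, other scalings and filters, a replicate block, a lowess correction for GC content and each library left out. The fit was tested on simulated data. The members and gene lists were chosen with earlier results of these data known. Named are the 8 members, every called gene and the 2 genes of smallest p of each list, all genes of lists of up to 8, and the closest genes by r (5 for PMAIP1, 3 for other members of at least 5 CPM). Results for 1 transcription factor and its target genes are not reported here.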

Additional observations from a re-analysis of the deposited data

How the results depend on the processing

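The log2 fold change of PMAIP1 stayed below 0 under all 16 alternatives and was called in 11. It was not called by limma on log2(FPKM + 1) (-0.71) or after the GC correction (-0.65), and with 1 library left out it ranged from -0.99 to -0.58, not called without Vector replicate 2, OE_GPX3 replicate 2 or OE_GPX3 replicate 3. BBC3 kept its sign under 16 of 16 alternatives, BID and BAD under 16 of 16, BIK under 15 of 15 and HRK under 14 of 14. BMF turned to -0.0064 with total counts alone, to -0.015 with the GC correction, to -0.0044 with the replicate block and GC correction together (chosen after seeing the data), to -0.17 without Vector replicate 2 and to -0.083 without OE_GPX3 replicate 1, where BCL2L11 turned to -0.037. With 1 library left out BMF ranged from -0.17 to 0.23 and BCL2L11 from -0.037 to 0.27. BAD was called without OE_GPX3 replicate 1 (0.42), a fit that called 657 of all genes. BBC3 was called with the block and GC correction together (-0.43), a fit that called 49 of all genes. The cause of these changes was not tested. Levels in TMM-scaled CPM per kb differed from the deposited FPKM by less than 1 SD for all 8 genes in both groups.

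Over all genes tested, 38 were called, against 116 by DESeq2, 68 with total counts alone, 129 with no filter on low counts, 4 by limma on FPKM, 4 with the GC correction, and 1 to 657 with 1 library left out. The replicate block called 231 genes, with PMAIP1 at -0.80 and still called. Nothing in the labels pairs same-numbered libraries, and not every pair correlated: their deviations correlated at 0.19, 0.010 and 0.11. Vector replicates 1 and 3 correlated best with their own number, and Vector replicate 2 with OE_GPX3 replicate 3 (0.033), a hint from the data and not the design. Depth limits HRK, BIK and BMF, with 14 to 104 counts per library.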
